A study of Mus musculus with 12 samples.

Results

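The 47 genes described here encode the subunits of the constitutive proteasome, its activators and its assembly factors, as they were measured in mouse myocardium. They were taken by symbol, as every named gene beginning with Psma, Psmb, Psmc, Psmd, Psme, Psmf or Psmg and a digit, without the immunoproteasome subunits Psmb8, Psmb9 and Psmb10. They made up 47 of 19505 genes with a name, and each had 1 probe set on the array. The symbol rule also took in Psme3ip1, which encodes a binding partner of the activator subunit Psme3, and Psmc3ip, a recombination gene that is not part of the proteasome. Psmb5 was not analysed here.

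Expression was profiled on 12 Affymetrix arrays, 1 for each of 12 mice, in 3 groups of 4. In the DM_AngIV group, streptozotocin, which destroys the insulin-producing beta cells of the pancreas, was injected into the abdomen on 5 consecutive days, and angiotensin IV, a peptide fragment of the angiotensin family, was then infused at 2.88 mg/kg/day between the end of week 8 and the end of week 24. The DM group received the same streptozotocin course and no peptide. Mice entered both diabetic groups only with a fasting blood glucose of at least 16.7 mM 2 weeks after the injections. The NC group received vehicle injections for 5 days. The tissue of all groups is labelled as 6 months, while the sources used here give no strain, sex or age at injection. Diabetes was chemically induced in both diabetic groups, so a direct effect of streptozotocin on the heart and diabetes itself cannot be told apart. No group given angiotensin IV without diabetes was analysed here.

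The proteasome is the main protease for proteins tagged with ubiquitin. Its core particle is a barrel of stacked rings, in which outer alpha rings gate the entrance and inner beta rings hold the proteolytic sites. A regulatory particle caps the barrel: its base carries a ring of ATPases that unfold substrates and feed them inward, and its lid removes the ubiquitin chain. In cardiomyocytes, which rarely divide, this pathway disposes of damaged and misfolded proteins and turns over sarcomere components.

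Myocardial identity was checked on marker genes. All 9 ventricular cardiomyocyte markers lay above background on every array, where background is 4.96 on the log2 scale, the 95th percentile of 246 control probe sets. All 5 lymphocyte and all 5 adipocyte markers measured lay below it on every array. Arrays differed in atrial signal: Myl7, the atrial myosin light chain, was above background on no DM_AngIV array, on DM replicates 1, 2 and 4, and on NC replicates 1 and 3. Over the 5 atrial markers the summed log2 level was 24.8 to 26.8 in DM_AngIV hearts, 22.7 to 40.5 in DM hearts and 25.5 to 42.9 in NC hearts. Bmp10, another of the 5 markers, was below background on all 12 arrays, also on those with Myl7 signal. Other marker lists were uneven too. The 7 smooth muscle and pericyte markers all had log2 fold changes above 0 in DM_AngIV against DM, with summed levels of 44.6 to 47.6 in DM_AngIV hearts, 41.7 to 45.2 in DM hearts and 42.0 to 52.4 in NC hearts. The 6 fibroblast markers measured summed to 42.9 to 45.2 in DM_AngIV hearts, 44.6 to 46.2 in DM hearts and 45.0 to 47.9 in NC hearts, and Col3a1, a fibrillar collagen, fell in DM_AngIV against NC (log2 fold change -1.17, limma adjusted p = 0.0128, or 0.175 once the 5 arrays carrying atrial signal were dropped). Array medians lay between 4.12 and 4.19, and between 42.8% and 43.3% of genes were above background on each array.

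Of the 47 genes, 41 were above background on all 12 arrays. The other 6 were below it on all 12. Psma8, the testis form of an alpha subunit, ranged between 2.69 and 3.86, and Psmb11, the thymus form of a catalytic subunit, between 3.34 and 3.76. Psmg3 ranged between 3.40 and 3.86 and Psmg4 between 3.88 and 4.45; both encode chaperones of core particle assembly. Psmd5, a chaperone of base assembly, ranged between 4.27 and 4.87. Psmc3ip ranged between 4.24 and 4.78. These 6 genes stay in the counts and medians over the 47, while folds, ranges and intervals are given for the 41.

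Promoter sequence was available for 39 of the 47 genes, in 43 windows of 300 bases that run 250 bases before to 50 bases after an annotated start (RefSeq, GRCm38.p6). The core letters bound by ETS transcription factors, CCGGAAG on either strand (CTTCCGG on the other), were in 17 of the 43 windows, or 39.5%. These windows belong to 16 genes, which include Psme3ip1 as well as Psmc3ip and Psmg3, both below background on all arrays. The same letters were in 8.86% of all 32851 windows and in 18.0% of the windows of genes above background on all arrays. The core of the antioxidant response element, TGACNNNGC, through which Nfe2l1 and Nfe2l2 act, was in 5 of the 43 windows (11.6%), those of Psmb6, Psmc6, Psmd12, Psmd9 and Psme4. Its shares were 12.4% of all windows and 14.5% of those of genes above background. The GC box GGGCGG was in 55.8% of the 43 windows, 35.7% of all windows and 62.9% of those of genes above background. CCAAT was in 34.9%, 37.4% and 37.0% of the same sets of windows, and TATAAA in 6.98%, 13.6% and 7.60%. The core bound by nuclear respiratory factor 1 was in 4.65%, 0.971% and 2.14% of them. Both strands were searched for each motif. One ETS core, in the Psme4 window, overlapped a GC box; no ETS core in the other windows overlapped any of the searched motifs. A match describes letters, and binding was not measured. Sequences are printed for Psma6, Psmd4 and Psme4, which head the differences described next, and for Psmc1, Psmc6 and Psmd12, which tracked each other closely between arrays. Psmd10, also among the larger differences, and Psma1, Psma7, Psmc4 and Psmd8, from other close pairs, had no ETS core in their windows. Capitals mark the ETS core. The windows are chr12:55398575-55398874 (+) for Psma6, chr3:95042565-95042864 (-) for Psmd4, chr11:30771525-30771824 (+) for Psme4, chr12:100109952-100110251 (+) for Psmc1, chr14:45329574-45329873 (+) for Psmc6 and chr11:107479278-107479577 (+) for Psmd12, and each is written 5′ to 3′ on the gene's strand.
Psma6: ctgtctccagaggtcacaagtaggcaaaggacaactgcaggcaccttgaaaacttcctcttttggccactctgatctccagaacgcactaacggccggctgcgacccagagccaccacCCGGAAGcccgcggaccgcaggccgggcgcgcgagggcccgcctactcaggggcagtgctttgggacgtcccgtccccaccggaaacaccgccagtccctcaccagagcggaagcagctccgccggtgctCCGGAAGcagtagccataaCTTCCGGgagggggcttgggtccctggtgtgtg
Psmd4: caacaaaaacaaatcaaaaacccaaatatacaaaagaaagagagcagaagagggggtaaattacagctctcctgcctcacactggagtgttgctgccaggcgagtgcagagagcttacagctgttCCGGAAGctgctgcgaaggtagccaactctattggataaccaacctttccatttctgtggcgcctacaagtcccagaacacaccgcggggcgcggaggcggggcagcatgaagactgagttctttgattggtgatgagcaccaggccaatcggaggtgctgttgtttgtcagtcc
Psme4: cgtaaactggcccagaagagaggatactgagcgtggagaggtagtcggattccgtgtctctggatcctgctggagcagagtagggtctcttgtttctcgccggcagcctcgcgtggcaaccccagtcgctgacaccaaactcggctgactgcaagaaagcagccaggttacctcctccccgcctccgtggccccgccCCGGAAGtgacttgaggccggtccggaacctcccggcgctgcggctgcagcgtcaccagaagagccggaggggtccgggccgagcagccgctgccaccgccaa
Psmc1: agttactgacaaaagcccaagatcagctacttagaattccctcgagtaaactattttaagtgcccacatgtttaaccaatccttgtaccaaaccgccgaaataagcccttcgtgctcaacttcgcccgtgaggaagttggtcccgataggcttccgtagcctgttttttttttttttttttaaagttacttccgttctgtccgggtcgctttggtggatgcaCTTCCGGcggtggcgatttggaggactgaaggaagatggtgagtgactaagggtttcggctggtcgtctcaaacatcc
Psmc6: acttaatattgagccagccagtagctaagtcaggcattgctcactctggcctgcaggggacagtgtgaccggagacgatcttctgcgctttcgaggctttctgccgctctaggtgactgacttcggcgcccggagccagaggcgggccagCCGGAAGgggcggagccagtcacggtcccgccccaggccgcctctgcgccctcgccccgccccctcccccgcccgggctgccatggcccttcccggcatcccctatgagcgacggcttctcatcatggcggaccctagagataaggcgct
Psmd12: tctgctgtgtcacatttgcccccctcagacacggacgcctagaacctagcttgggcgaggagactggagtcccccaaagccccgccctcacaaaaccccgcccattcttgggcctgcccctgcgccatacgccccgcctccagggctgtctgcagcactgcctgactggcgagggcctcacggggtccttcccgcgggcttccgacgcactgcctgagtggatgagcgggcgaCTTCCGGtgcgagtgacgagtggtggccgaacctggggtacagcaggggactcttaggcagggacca
The Psma6 window holds 3 ETS cores, and each of the other windows shown holds 1. RefSeq lists another start for Psma6, whose window holds none.

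None of the proteasome genes passed the test in diabetic hearts set against control hearts. In DM against NC, 0 of the 47 genes passed limma's test at an adjusted p below 0.05, beside 0.0154% of all genes. Over the 47 the median log2 fold change was -0.04, against 0.00 over all genes, and 19 were above 0, beside 49.8% of all genes. Among the 41 genes above background the values lay between -0.32 and 0.27 and 17 were above 0, beside 49.3% of all genes above background. The unadjusted p was below 0.05 for 2 genes, or 4.26%, beside 8.95% of all genes: Psma6 with higher and Psme4 with lower values in DM hearts. After removal of the 5 arrays that carried atrial signal, 1 DM and 2 NC arrays remained and neither gene reached it; the lone DM array was then assumed to vary like the other groups. Psma6 missed it when NC replicate 1, NC replicate 2 or DM replicate 1 was left out. Psme4 missed it when any of NC replicates 2 to 4, or either of DM replicates 1 and 2, was left out. The groups did not overlap for 2 genes, Psma6 and Psmd6, beside 4.54% of all genes. For 39 of the 41 the 95% interval of the log2 difference stayed within 0.5 of 0, beside 82.8% of genes above background; the exceptions were Psmd4 and Psme4. Because the tissue was measured in bulk, fewer cells of a type and less RNA per cell cannot be told apart in any of these values.

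Between diabetic hearts with and without angiotensin IV, more of these genes had log2 fold changes above 0 than below, and none passed the test. In DM_AngIV against DM, 0 of the 47 passed at an adjusted p below 0.05, beside 0% of all genes. The median log2 fold change was 0.05, and 32 of the 47 (68.1%) were above 0, beside 49.8% of all genes. Among the 41 genes above background the median was 0.07 and 29 were above 0, while all genes above background had a median of 0.03 and 57.7% above 0. An unadjusted p below 0.05 was found for 7 genes, all with higher values in DM_AngIV hearts: Psmb4, Psmd4, Psmd6, Psmd7, Psmd10, Psme1 and Psme4. This was 14.9% of the 47, beside 3.98% of all genes and 6.2% of genes above background on the higher side. For 5 genes, or 10.6%, every DM_AngIV array lay above every DM array, beside 2.81% of all genes and 5.23% of genes above background: Psmb4, Psmd6, Psmd7, Psmd10 and Psme4. The count of 7 came to 2 without DM_AngIV replicate 1, beside 3.51% of all genes on the higher side in that fit, and to 3 without DM replicate 4, beside 2.71%. It came to 4 without DM replicate 3, DM_AngIV replicate 3 or DM_AngIV replicate 4, beside 3.05%, 3.56% and 3.13%. When the 5 arrays with atrial signal were dropped, only DM replicate 3 stood for its group, and the count was 2, Psmd4 and Psmd10, beside 3.44% of all genes. Adjusted for the averaged atrial markers as a covariate, it was 4, Psmc3, Psmd4, Psmd6 and Psme4, beside 4.07%. Log2 fold changes above 0 numbered 27 and 31 of the 47 in these fits, and 26 after quantile normalization. The 95% interval stayed within 0.5 of 0 for 38 of the 41, beside 84.3% of genes above background.

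Compared with control hearts, the hearts given angiotensin IV gave the widest range of log2 fold changes of the 3 comparisons. The same held over all genes above background. Their 10th to 90th percentiles were -0.23 to 0.32 here, -0.20 to 0.21 in DM against NC and -0.16 to 0.23 in DM_AngIV against DM. For the 41 proteasome genes above background these percentiles were -0.13 to 0.30 in DM_AngIV against NC. In DM_AngIV against NC, 0 of the 47 passed at an adjusted p below 0.05, beside 1.02% of all genes (0.728% higher and 0.287% lower). Over the 47 the median log2 fold change was 0.05, against -0.01 over all genes, and 27 were above 0, beside 48.5%. Among the 41 genes above background the values ran between -0.28 and 0.58 and 25 were above 0, beside 54.7%. An unadjusted p below 0.05 was reached on the higher side by 5 genes, Psma6, Psmc1, Psmc3, Psmd4 and Psmd10, beside 8.11% of all genes and 14% of genes above background, and on the lower side by 2, Psma2 and Psmg2, beside 6.53%. Every DM_AngIV array lay above every NC array for 7 genes: Psma6, Psmc1, Psmc3, Psmc5, Psmd4, Psmd7 and Psmd10. This is beside 5.63% of all genes. The reverse held for 2, Psma2 and Psmg2, beside 4.2%. Without 1 array, Psma2 missed the unadjusted p when NC replicate 1, DM_AngIV replicate 2 or DM_AngIV replicate 4 was dropped, and Psmg2 when NC replicate 3, DM_AngIV replicate 1 or DM_AngIV replicate 2 was. On the higher side, Psmc1 missed it without NC replicate 1 or NC replicate 2, and Psmd10 without NC replicate 1 or DM_AngIV replicate 1. Psmd10 also missed it without the arrays with atrial signal and with the atrial covariate, and Psma2 without those arrays. Psma6, Psmc3 and Psmd4 reached it in each of these fits. Together the 9 genes whose groups did not overlap are 19.1% of the 47, beside 9.83% of all genes. Against genes above background, the 7 of 41 on the higher side (17.1%) stand beside 11.5%. The 2 of 41 on the lower side (4.88%) stand beside 6.87%. For 34 of the 41 the 95% interval stayed within 0.5 of 0, beside 73.1% of genes above background. The 3 comparisons share arrays in pairs, so they are not independent of each other.

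**Figure D1:**
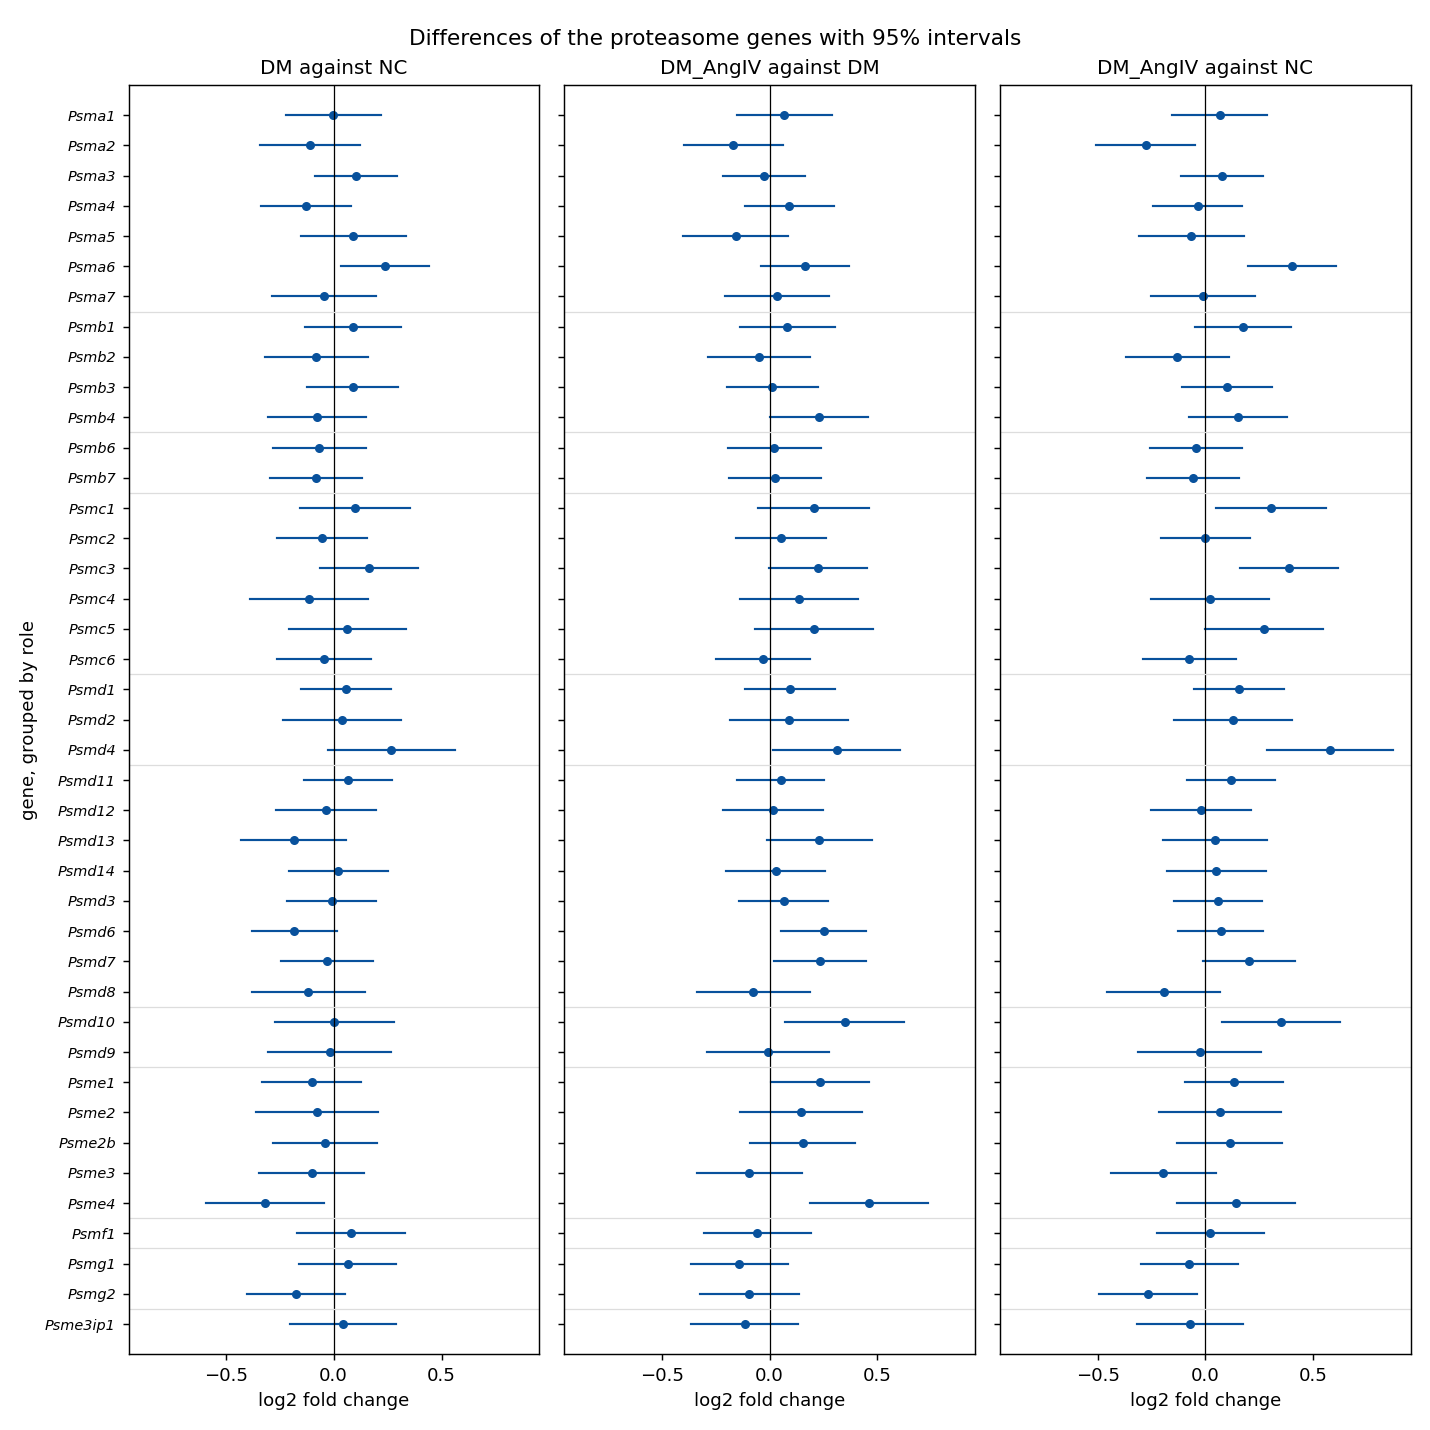
Log2 fold change (x axis) with its 95% interval from limma for each of the 41 genes above background on all arrays (y axis, grouped by role) in the 3 comparisons. No gene passed an adjusted p below 0.05, and the estimates run from -0.32 to 0.27 in DM against NC and from -0.28 to 0.58 in DM_AngIV against NC.

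The alpha ring, whose 7 subunits form the gate of the core particle, was led by Psma6 (chr12:55384222-55418459). Psma6 had log2 values of 9.02, 9.10, 9.14 and 9.15 in DM_AngIV hearts, 9.06, 8.91, 8.85 and 8.94 in DM hearts, and 8.66, 8.57, 8.79 and 8.78 in NC hearts. All arrays of both diabetic groups lay above all NC arrays, and DM_AngIV and DM hearts overlapped. The log2 fold change was 0.40 ± 0.10 (SE) in DM_AngIV against NC, a fold of 1.32 (limma adjusted p = 0.0621), and 0.24 ± 0.10 in DM against NC (adjusted p = 0.478). In DM_AngIV against DM it was 0.17 (adjusted p = 0.720). Psma2 ran the other way, with 7.46, 7.42, 7.60 and 7.42 in DM_AngIV hearts, 7.39, 7.63, 7.71 and 7.84 in DM hearts, and 7.83, 7.74, 7.76 and 7.69 in NC hearts. Every DM_AngIV array lay below every NC array, while the DM arrays spanned both. Its log2 fold change was -0.28 ± 0.11 in DM_AngIV against NC (adjusted p = 0.246) and -0.17 in DM_AngIV against DM (adjusted p = 0.756). The DM_AngIV against DM value lay between -0.25, without DM replicate 1, and -0.10, without DM replicate 4.

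Within the rest of the alpha ring, Psma5 had 7.48, 7.46, 7.82 and 7.44 in DM_AngIV hearts, 7.50, 7.87, 7.71 and 7.74 in DM hearts, and 7.60, 7.52, 7.72 and 7.62 in NC hearts. The groups overlapped, and DM_AngIV replicate 3 stood above the other 3 arrays of its group. Psma3 had 7.98, 8.04, 8.02 and 8.01 in DM_AngIV hearts, 8.00, 8.08, 8.02 and 8.07 in DM hearts, and 7.88, 7.99, 8.04 and 7.84 in NC hearts. Its diabetic arrays differed little among themselves, and the log2 fold change in DM against NC was 0.10 (adjusted p = 0.787). Psma1 averaged 7.91 ± 0.07 in DM_AngIV hearts, 7.84 ± 0.06 in DM hearts and 7.85 ± 0.17 in NC hearts (SD, n = 4 each). Psma4 and Psma7 averaged 8.05 and 7.50 in DM_AngIV hearts, 7.96 and 7.46 in DM hearts, and 8.08 and 7.51 in NC hearts. In DM against NC the 7 alpha subunits had a median log2 fold change of 0.00, with 3 above 0.

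**Figure D2:**
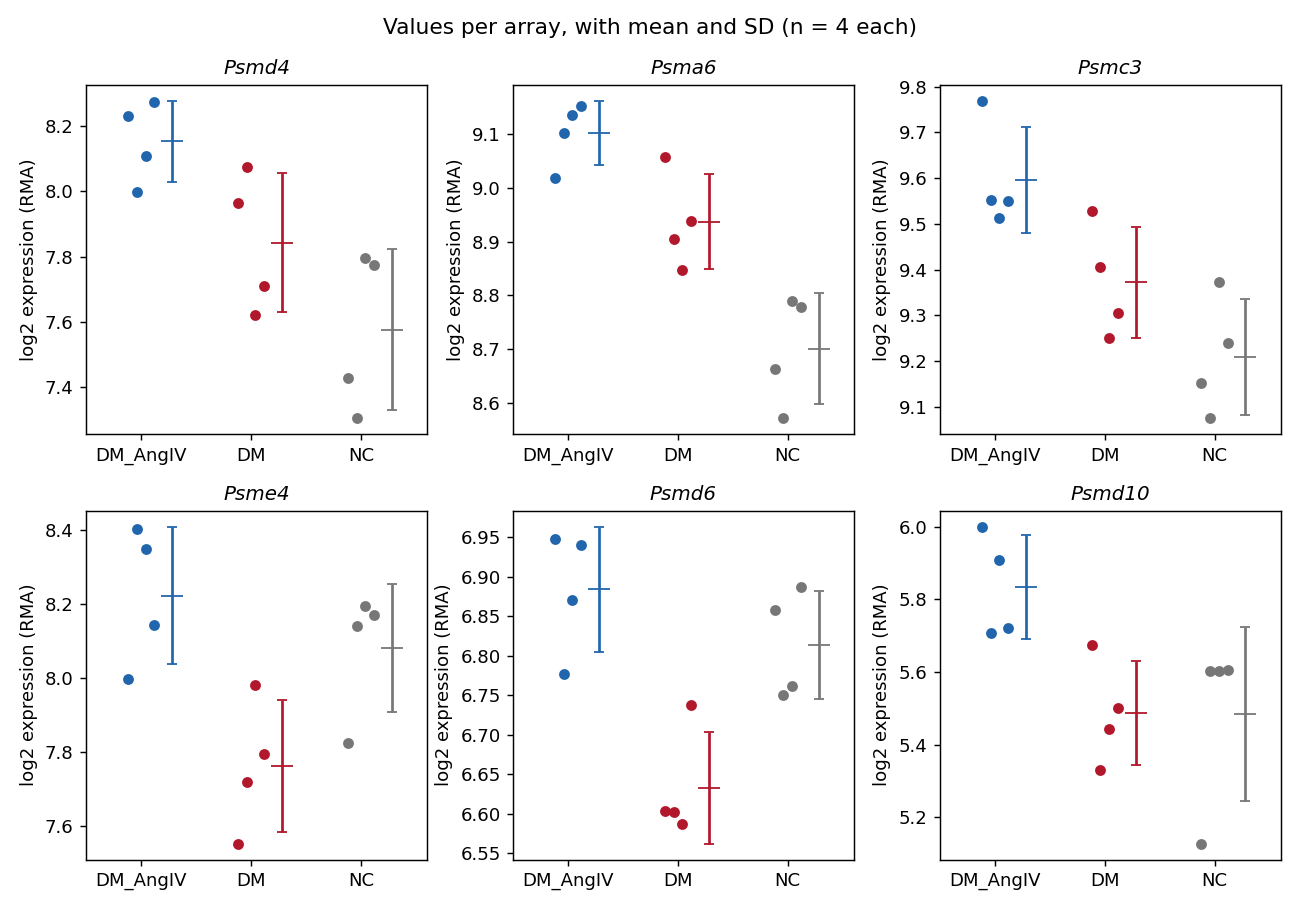
Log2 expression (y axis) on each of the 12 arrays for 6 of the genes, with DM_AngIV, DM and NC from left to right; points are arrays, and bars give the mean and SD (n = 4 each). Every DM_AngIV array lies above every NC array for Psma6, Psmd4, Psmc3 and Psmd10, while the groups overlap in this comparison for Psme4 and Psmd6.

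The inner rings carry the proteolytic sites on a few of their subunits. Psmb6, which cleaves after acidic residues, had 8.19, 8.15, 8.16 and 8.03 in DM_AngIV hearts, 7.97, 8.08, 8.21 and 8.19 in DM hearts, and 8.17, 8.05, 8.35 and 8.14 in NC hearts. Psmb7, which cleaves after basic residues, had 8.58, 8.34, 8.36 and 8.44 in DM_AngIV hearts, 8.33, 8.31, 8.48 and 8.50 in DM hearts, and 8.37, 8.47, 8.60 and 8.52 in NC hearts. All 3 groups overlapped for both genes. For Psmb6 the 95% intervals of the log2 difference were -0.19 to 0.24 in DM_AngIV against DM and -0.28 to 0.15 in DM against NC. For Psmb7 they were -0.19 to 0.24 and -0.30 to 0.13. Each of these intervals includes 0, so with 4 arrays a group neither a rise nor a fall within it was excluded.

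Among the 4 structural beta subunits measured, Psmb4 separated the diabetic groups. It had 7.71, 7.58, 7.65 and 7.70 in DM_AngIV hearts, 7.50, 7.41, 7.34 and 7.49 in DM hearts, and 7.35, 7.36, 7.74 and 7.59 in NC hearts. Every DM_AngIV array lay above every DM array, and the NC arrays spanned both groups. The log2 fold change was 0.23 ± 0.11 in DM_AngIV against DM (limma adjusted p = 0.666) and -0.08 in DM against NC (adjusted p = 0.894). Psmb1 averaged 9.03 ± 0.13 in DM_AngIV hearts, 8.94 ± 0.13 in DM hearts and 8.85 ± 0.07 in NC hearts. Psmb2 and Psmb3 averaged 8.52 ± 0.11 and 7.68 ± 0.11 in DM_AngIV hearts, 8.57 ± 0.16 and 7.66 ± 0.04 in DM hearts, and 8.65 ± 0.13 and 7.58 ± 0.11 in NC hearts.

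In the base of the regulatory particle, the 6 ATPases had a median log2 fold change of 0.17 in DM_AngIV against DM, with 5 above 0. In DM against NC the median was 0.01, with 3 above 0. Among all genes above background, 57.7% and 49.3% were above 0 in these comparisons. Psmc3 (chr2:91054016-91059438) had 9.77, 9.55, 9.51 and 9.55 in DM_AngIV hearts, 9.53, 9.41, 9.25 and 9.31 in DM hearts, and 9.15, 9.08, 9.37 and 9.24 in NC hearts. DM_AngIV hearts lay above all NC hearts and overlapped with DM hearts, and DM hearts overlapped with NC hearts. Its log2 fold change was 0.39 ± 0.11 in DM_AngIV against NC, a fold of 1.31 (limma adjusted p = 0.0977), 0.22 ± 0.11 in DM_AngIV against DM (adjusted p = 0.676), and 0.16 in DM against NC (adjusted p = 0.711). Psmc1 had 7.93, 7.94, 7.86 and 7.94 in DM_AngIV hearts, 7.49, 7.98, 7.68 and 7.70 in DM hearts, and 7.49, 7.42, 7.78 and 7.76 in NC hearts. DM_AngIV hearts lay within a narrow band above all NC hearts, with a log2 fold change of 0.30 ± 0.12 (adjusted p = 0.256). Psmc5 had 7.29, 7.09, 7.19 and 7.04 in DM_AngIV hearts, 6.97, 6.86, 6.85 and 7.11 in DM hearts, and 7.01, 6.49, 7.01 and 7.02 in NC hearts. DM_AngIV hearts lay above all NC hearts, of which replicate 2 was well below the other 3. The Psmc5 log2 fold change of 0.27 ± 0.13 in DM_AngIV against NC (adjusted p = 0.344) came to 0.14 without NC replicate 2. Psmc2, Psmc4 and Psmc6 averaged 8.39, 7.19 and 7.97 in DM_AngIV hearts, 8.33, 7.05 and 8.00 in DM hearts, and 8.39, 7.16 and 8.05 in NC hearts.

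Of the non-ATPase subunits of the base, Psmd4 (chr3:95032688-95042614), a receptor for ubiquitin chains, had the largest log2 fold change of the 47 genes in DM_AngIV against NC. It had 8.23, 8.00, 8.11 and 8.27 in DM_AngIV hearts, 7.96, 8.07, 7.62 and 7.71 in DM hearts, and 7.43, 7.31, 7.80 and 7.77 in NC hearts. DM_AngIV hearts lay above all NC hearts and overlapped with DM hearts; the DM and NC replicates were spread more widely than the DM_AngIV replicates, with SDs of 0.12 in DM_AngIV hearts, 0.21 in DM hearts and 0.25 in NC hearts. The log2 fold change was 0.58 ± 0.14 in DM_AngIV against NC, a fold of 1.49 with a 95% interval on the log2 scale of 0.28 to 0.87 (limma adjusted p = 0.0621). It was 0.31 ± 0.14 in DM_AngIV against DM (adjusted p = 0.651) and 0.27 ± 0.14 in DM against NC (adjusted p = 0.611). The scaffold subunits Psmd1 and Psmd2 averaged 8.10 ± 0.13 and 8.15 ± 0.07 in DM_AngIV hearts, 8.00 ± 0.08 and 8.06 ± 0.21 in DM hearts, and 7.94 ± 0.06 and 8.02 ± 0.22 in NC hearts. Without the 5 arrays with atrial signal, the DM_AngIV against NC log2 fold changes of Psmd4, Psma6 and Psmc3 were 0.61, 0.43 and 0.44. The same removal took DM against NC to 0.08 for Psmd4 and 0.09 for Psmc3, and DM_AngIV against DM to 0.53 for Psmd4, 0.25 for Psma6 and 0.35 for Psmc3, with 1 DM array left. Psmd4 in DM against NC also came to 0.18 without NC replicate 2.

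The lid subunits surround Psmd14, the enzyme that cuts ubiquitin chains from substrates. Psmd6 (chr14:14112185-14120945) had 6.95, 6.78, 6.87 and 6.94 in DM_AngIV hearts, 6.60, 6.60, 6.59 and 6.74 in DM hearts, and 6.86, 6.75, 6.76 and 6.89 in NC hearts. Every DM array lay below every array of both other groups, which overlapped with each other. The log2 fold change was 0.25 ± 0.09 in DM_AngIV against DM (limma adjusted p = 0.620) and -0.18 ± 0.09 in DM against NC (adjusted p = 0.608). Psmd7, the structural partner of Psmd14, had 9.29, 9.23, 9.19 and 9.26 in DM_AngIV hearts, 9.18, 9.06, 8.91 and 8.89 in DM hearts, and 8.91, 9.13, 9.12 and 9.02 in NC hearts. DM_AngIV hearts lay above all hearts of both other groups, with log2 fold changes of 0.23 ± 0.10 against DM (adjusted p = 0.643) and 0.20 ± 0.10 against NC (adjusted p = 0.372).

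Psmd13, another lid subunit, had 7.93, 7.88, 8.15 and 8.10 in DM_AngIV hearts, 7.90, 7.97, 7.73 and 7.54 in DM hearts, and 7.89, 7.93, 8.09 and 7.98 in NC hearts. Its log2 fold change of -0.19 ± 0.11 in DM against NC (limma adjusted p = 0.684) came to -0.10 without DM replicate 4. Psmd8 had 7.85, 7.84, 8.07 and 7.99 in DM_AngIV hearts, 7.69, 8.27, 8.10 and 7.99 in DM hearts, and 8.00, 8.24, 8.11 and 8.17 in NC hearts. The groups overlapped, and the difference in DM_AngIV against NC was -0.19 on the log2 scale (adjusted p = 0.507). Psmd14 averaged 5.98 ± 0.13 in DM_AngIV hearts, 5.95 ± 0.06 in DM hearts and 5.93 ± 0.16 in NC hearts. Psmd3, Psmd11 and Psmd12 averaged 7.77, 7.66 and 8.07 in DM_AngIV hearts, 7.71, 7.61 and 8.06 in DM hearts, and 7.72, 7.54 and 8.09 in NC hearts.

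Chaperones assemble both particles before they join. Psmd10 (chrX:140948425-140956711), which holds base ATPases during assembly and is also known as gankyrin, had 6.00, 5.71, 5.91 and 5.72 in DM_AngIV hearts, 5.67, 5.33, 5.44 and 5.50 in DM hearts, and 5.13, 5.60, 5.60 and 5.61 in NC hearts. DM_AngIV hearts lay above all hearts of both other groups. The log2 fold change was 0.35 ± 0.13 against DM (limma adjusted p = 0.620) and 0.35 ± 0.13 against NC (adjusted p = 0.220). The second of these came to 0.23 without NC replicate 1, and to 0.23 without the arrays with atrial signal. Psmd9, a further base chaperone, averaged 5.70 ± 0.15 in DM_AngIV hearts, 5.71 ± 0.10 in DM hearts and 5.73 ± 0.28 in NC hearts.

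Psmg1 and Psmg2, whose products pair to guide formation of the alpha ring, did not share this order. Psmg1 had 6.22, 6.03, 6.09 and 6.15 in DM_AngIV hearts, 6.20, 6.18, 6.30 and 6.38 in DM hearts, and 6.21, 6.36, 5.98 and 6.25 in NC hearts. Psmg2 had 6.81, 6.79, 6.88 and 6.94 in DM_AngIV hearts, 6.69, 7.08, 7.05 and 6.97 in DM hearts, and 6.99, 7.14, 7.19 and 7.15 in NC hearts. Every DM_AngIV array lay below every NC array for Psmg2, with a log2 fold change of -0.27 ± 0.11 (limma adjusted p = 0.259). In DM against NC its value of -0.17 came to -0.09 without DM replicate 1 and to -0.10 without the arrays with atrial signal.

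Activators open the core particle without the regulatory particle's ATPases. Psme4 (chr11:30771775-30881150), a large activator linked to acetylated histones, had 8.00, 8.40, 8.35 and 8.14 in DM_AngIV hearts, 7.55, 7.72, 7.98 and 7.80 in DM hearts, and 7.82, 8.14, 8.19 and 8.17 in NC hearts. Every DM_AngIV array lay above every DM array, and NC hearts overlapped with both groups. Its log2 fold change was 0.46 ± 0.13 in DM_AngIV against DM, a fold of 1.38 with a 95% interval on the log2 scale of 0.19 to 0.73 (limma adjusted p = 0.511). It was -0.32 ± 0.13 in DM against NC (adjusted p = 0.477) and 0.14 ± 0.13 in DM_AngIV against NC (adjusted p = 0.676). After removal of the 5 arrays that carried atrial signal these were 0.24 in DM_AngIV against DM and -0.17 in DM against NC, and with the atrial covariate they were 0.31 and -0.29. The part of the atrial signal, or of the smooth muscle markers, in the differences of Psme4 was not tested.

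The remaining activators form rings on the ends of the core particle. Psme1 had 9.33, 9.34, 9.36 and 9.15 in DM_AngIV hearts, 9.02, 9.00, 9.23 and 9.00 in DM hearts, and 8.94, 9.20, 9.29 and 9.22 in NC hearts. The DM_AngIV and DM arrays overlapped, with a log2 fold change of 0.23 ± 0.11 (limma adjusted p = 0.660). It came to 0.06 without the arrays with atrial signal and to 0.12 with the atrial covariate. Its partner Psme2 averaged 6.74 ± 0.22 in DM_AngIV hearts, 6.60 ± 0.13 in DM hearts and 6.68 ± 0.21 in NC hearts. Psme2b is a near-identical copy of Psme2, so its signal may not be its own; it averaged 6.02 ± 0.13 in DM_AngIV hearts, 5.87 ± 0.20 in DM hearts and 5.91 ± 0.08 in NC hearts. Psme3, the nuclear activator, had 6.79, 7.07, 7.16 and 7.14 in DM_AngIV hearts, 6.93, 7.19, 7.14 and 7.29 in DM hearts, and 7.27, 7.16, 7.18 and 7.34 in NC hearts. Its difference of -0.20 ± 0.11 in DM_AngIV against NC (adjusted p = 0.459) came to -0.11 without DM_AngIV replicate 1. All 5 activators had log2 fold changes below 0 in DM against NC, with a median of -0.10. Of all 7032 genes above background, 3566 were below 0 in this comparison. Psme2 and Psme2b may not be separate readings.

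Psme3ip1 had 6.72, 6.38, 6.51 and 6.42 in DM_AngIV hearts, 6.51, 6.59, 6.67 and 6.72 in DM hearts, and 6.67, 6.79, 6.40 and 6.45 in NC hearts, with all groups overlapping. Psmf1, whose protein binds and can inhibit the core particle, averaged 6.29 ± 0.12 in DM_AngIV hearts, 6.34 ± 0.14 in DM hearts and 6.26 ± 0.18 in NC hearts.

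**Figure D3:**
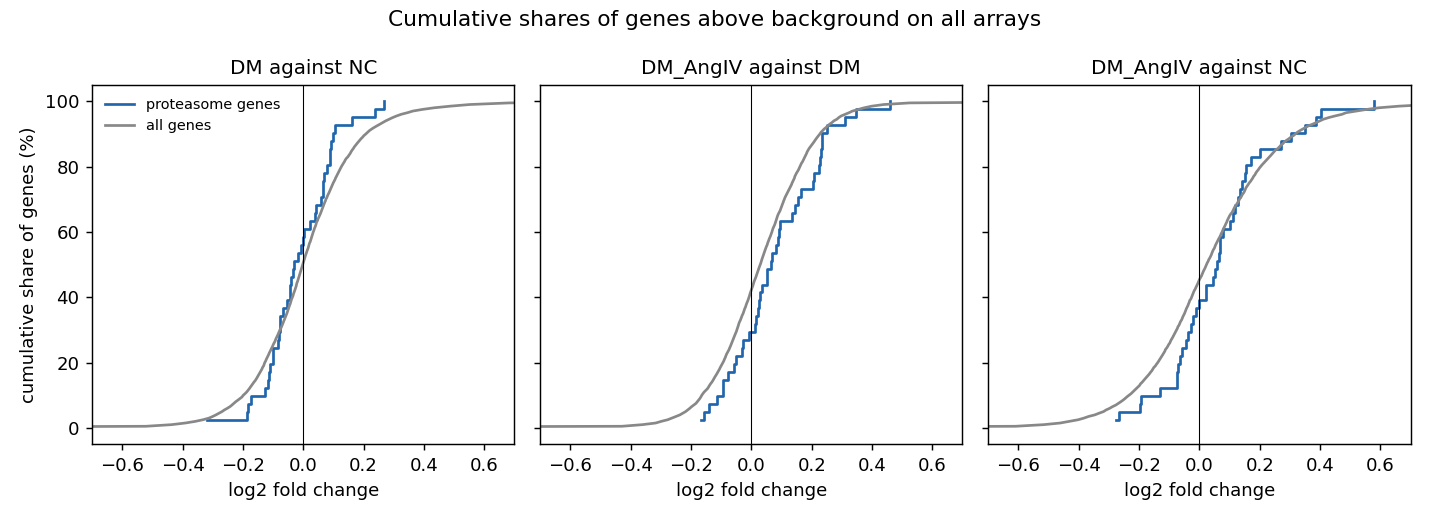
Cumulative share of genes (y axis, %) by log2 fold change (x axis) for the 41 proteasome genes above background on all arrays, as steps, and for all 7032 such genes, as a line, in the 3 comparisons. In DM_AngIV against DM the proteasome genes run to the right of all genes over most of the range, with medians of 0.07 and 0.03.

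The 41 genes above background were also summarised array by array. The median over these genes of the deviation from each gene's mean over 12 arrays was between -0.02 and 0.11 on the 4 DM_AngIV arrays, between -0.11 and 0.03 on the 4 DM arrays, and between -0.07 and 0.04 on the 4 NC arrays. The 3 groups overlapped.

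After each gene's group mean was removed, the proteasome genes had more positive than negative correlations across arrays. Over 820 pairs of the 41 genes Pearson's r of these deviations had a median of 0.17 and was above 0 in 66.5% of pairs, beside a median of 0.03 and 52.9% over pairs of all 7032 genes above background. The closest pairs were Psmc1 with Psmc6 (r = 0.92), Psmc1 with Psmd12 (0.91), Psmd8 with Psmg2 (0.89), Psmc6 with Psmd12 (0.87), Psma1 with Psmc4 (0.86) and Psma7 with Psmg2 (0.84). Psmc1, Psmc6 and Psmd12 form 3 of these pairs with each other. The most opposed pairs were Psma6 with Psme3ip1 (-0.83), Psma2 with Psmd7 (-0.79), Psmc2 with Psmd7 (-0.79) and Psmc2 with Psmd10 (-0.69). By role, the median r was 0.56 for the base non-ATPases (3 pairs), 0.47 for the activators (10 pairs) and 0.33 for the structural beta subunits (6 pairs). It was 0.32 for the base ATPases (15 pairs), 0.19 for the lid (28 pairs) and 0.17 for the alpha ring (21 pairs). Within roles r varied widely, from -0.57 to 0.92 in the base ATPases and from -0.61 to 0.70 in the lid. The activator pairs include Psme2 with its near-identical copy Psme2b (0.61). All points come from the same 12 arrays, so r also carries whatever the arrays share, and these values are descriptions. The median SD within groups was 0.13 for the proteasome genes and 0.15 for all genes above background.

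**Figure D4:**
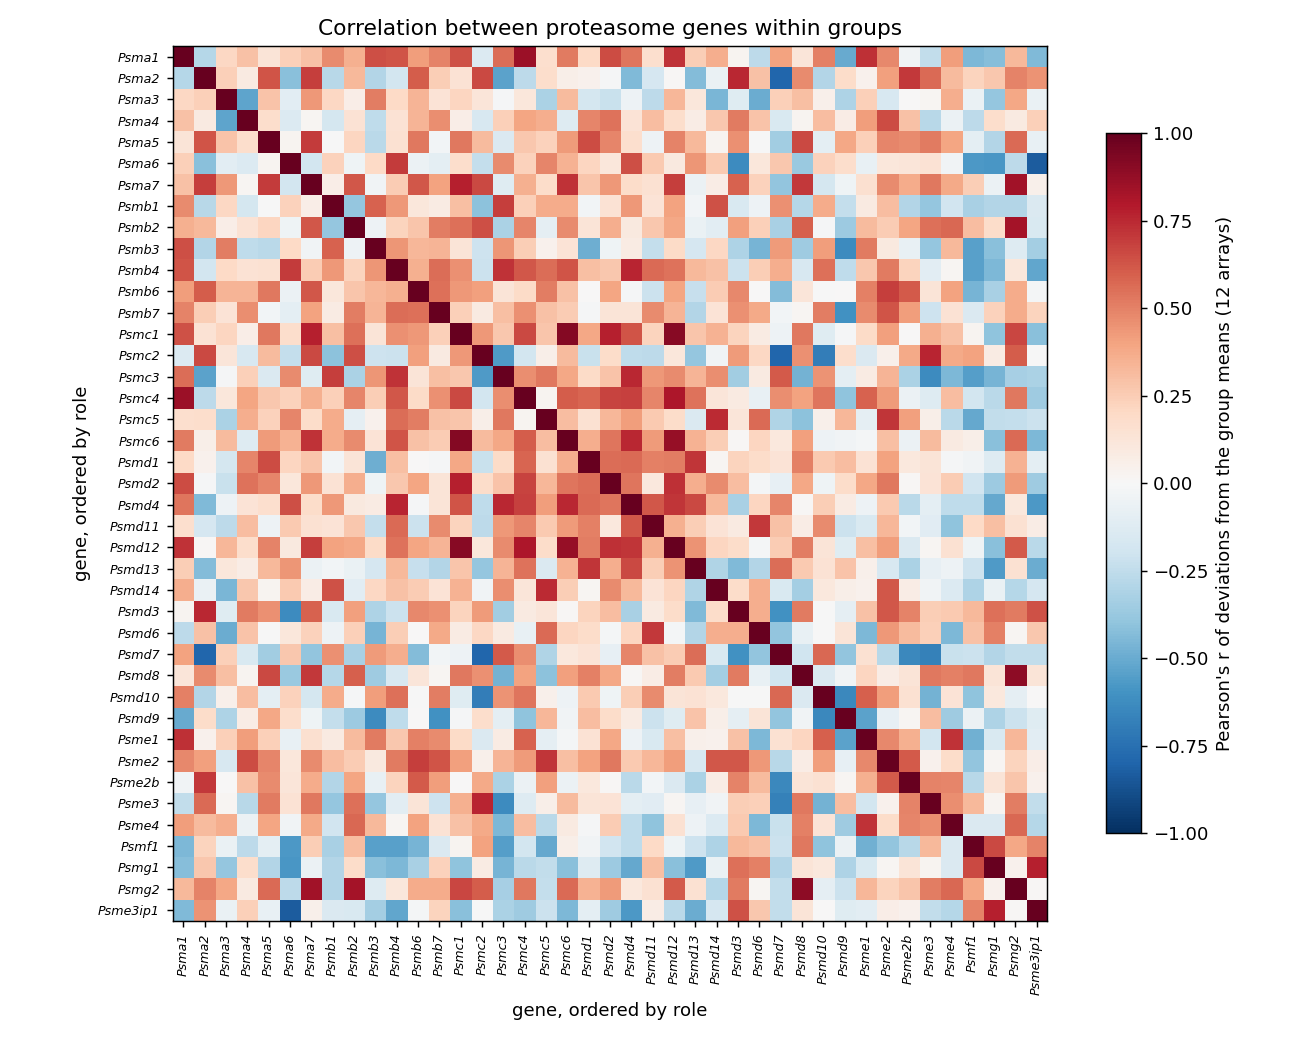
Pearson's r (colour scale, -1 to 1) between the deviations from group means of each pair of the 41 genes above background, over 12 arrays, with genes ordered by role on both axes. Psmc1, Psmc6 and Psmd12 form pairs with r of 0.87 to 0.92, and Psmd7 has r of -0.79 with both Psma2 and Psmc2.

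Partners of the proteasome outside the symbol rule were also without calls. Of 16 such genes 13 were measured, and 0 passed limma's test in any of the 3 comparisons; 9 had log2 fold changes above 0 in DM against NC, with a median of 0.03. Ube3c, a ubiquitin ligase bound to the proteasome, had -0.29 in DM against NC (adjusted p = 0.470) and -0.40 in DM_AngIV against NC (adjusted p = 0.117), where every DM_AngIV array lay below every NC array. Usp14, which trims ubiquitin chains on the proteasome, had 0.26 in the same comparison (adjusted p = 0.465), and it was above background on 4 DM_AngIV arrays and 2 NC arrays. Pomp, which assists core particle assembly, had 0.20 in DM_AngIV against DM (adjusted p = 0.707), and Akirin2, which helps to bring proteasomes into the nucleus, had -0.12 (adjusted p = 0.815). Zfand5, which can stimulate the proteasome, had 0.11 in DM against NC (adjusted p = 0.838). Of the immunoproteasome subunits, which replace catalytic subunits after interferon signalling, 0 of 3 passed. Psmb10 had 0.38 in DM_AngIV against DM (adjusted p = 0.639) and 0.42 in DM_AngIV against NC (adjusted p = 0.229). Psmb9 had 0.39 in DM against NC (adjusted p = 0.462) and Psmb8 -0.07 (adjusted p = 0.947).

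Regulators of proteasome genes gave 0 calls among 9 measured of 10. All 3 comparisons were without a call, with 5 of the 9 log2 fold changes above 0 in DM_AngIV against DM. Sel1l, of the degradation machinery of the endoplasmic reticulum, had 0.18 in DM against NC (limma adjusted p = 0.665), and Keap1, which holds down Nfe2l2, had 0.15 in DM_AngIV against DM (adjusted p = 0.768). Maff was above background on only 1 array, of DM_AngIV hearts, and Ngly1, which processes Nfe2l1, on none. Nfe2l1, which drives proteasome genes when the proteasome is blocked, had 0.24 in DM_AngIV against NC (limma adjusted p = 0.305). The p97 segregase, which pulls ubiquitinated proteins from complexes and membranes, and its cofactors gave 0 calls among 9. The cofactor Nsfl1c had -0.31 in DM against NC (adjusted p = 0.349) and -0.21 in DM_AngIV against NC (adjusted p = 0.335). In DM_AngIV against DM 8 of the 9 were above 0, beside 57.7% of genes above background. None of the 9 had an unadjusted limma p below 0.05 there. Ubxn6 had 0.16 and Ubxn4 -0.16 in DM_AngIV against DM (adjusted p = 0.807 and 0.801), and Ubxn1 had -0.12 in DM against NC (adjusted p = 0.844). Ubxn6 had 0.25 in DM_AngIV against NC (adjusted p = 0.409). Of 6 ubiquitin genes and activating enzymes 1 was measured, Uba6, and it was below background on all 12 arrays.

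The muscle ubiquitin ligases, which mark proteins for the proteasome, held 1 call. Fbxo32 had 8.25, 8.35, 8.34 and 8.60 in DM_AngIV hearts, 8.36, 8.11, 7.91 and 7.86 in DM hearts, and 7.59, 7.46, 7.57 and 7.61 in NC hearts, so that every diabetic heart lay above every NC heart. Fbxo32, known as atrogin-1, rose in DM_AngIV against NC: it averaged 8.39 ± 0.15 in DM_AngIV hearts, 8.06 ± 0.23 in DM hearts and 7.56 ± 0.07 in NC hearts (SD, n = 4 each), a log2 fold change of 0.83 ± 0.12 (limma adjusted p = 0.00699). Leaving out any 1 array kept the adjusted p between 0.0114 and 0.0265, and removing the arrays that carried atrial signal gave 0.0505, with a log2 fold change of 0.85. In DM against NC it was 0.51 (adjusted p = 0.201), and Fbxo21 had 0.43 (adjusted p = 0.418), while Fbxo32 had 0.32 in DM_AngIV against DM (adjusted p = 0.620). Trim63, known as MuRF1, had 0.49 in DM_AngIV against DM (adjusted p = 0.600) and 0.64 in DM_AngIV against NC (adjusted p = 0.0727). Of 9 genes in the list 8 were measured. In DM_AngIV against NC 7 of the 8 had log2 fold changes above 0, beside 48.5% of all genes.

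Of 10 interferon-induced genes 9 were measured. All 9 had log2 fold changes above 0 in DM_AngIV against NC, with a median of 0.60, beside 48.5% of all genes. All 9 were also above 0 in DM against NC, with a median of 0.24, beside 49.8% of all genes. Irf9, Ifit1 and Gbp2 were below background on all NC arrays. In DM_AngIV against NC, B2m, the light chain of class I molecules, rose by 0.58 on the log2 scale (limma adjusted p = 0.0236). Tap1, which carries peptides made by the proteasome to those molecules, rose by 0.69 (adjusted p = 0.0446). The Tap1 call was lost without any 1 array other than DM_AngIV replicate 2, at adjusted p of up to 0.133, and the B2m call without DM_AngIV replicates 1 or 3 or NC replicates 1, 2 or 4, at up to 0.0892. After removal of the arrays that carried atrial signal they were 0.160 for Tap1 and 0.175 for B2m. In DM_AngIV against DM, B2m had 0.40 (adjusted p = 0.511), and Irf9 was above background on 3 DM_AngIV arrays and no DM array (adjusted p = 0.513); Ifit3 had 0.69 in DM against NC (adjusted p = 0.513), and Isg15 was below background on all arrays. Most atrial markers had lower values: 3 of 5 had an unadjusted limma p below 0.05 in DM_AngIV against DM and in DM_AngIV against NC. Median log2 fold changes of the 5 were -2.24 and -1.81. The other 2 were above 0 in DM_AngIV against DM, Nppa at 0.04 and Bmp10, below background, at 0.13. All 5 were below 0 in DM_AngIV against NC. Macrophage markers had higher values: all 6 measured of 7 had log2 fold changes above 0 in DM_AngIV against NC, with a median of 0.20, and in DM against NC, with a median of 0.25, and 0 passed the test. Their summed log2 levels were 33.8 to 37.8 in DM_AngIV hearts, 34.1 to 39.6 in DM hearts and 34.8 to 35.7 in NC hearts, so that the groups overlapped, and no marker of the 6 was below background on all arrays. The part of the atrial and macrophage markers in these differences was not tested.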

How the data were processed

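The authors deposited 1 table of log2 values, made by robust multi-array average (RMA) per the submitters' processing notes; the sources used here give neither its version nor its annotation. Per the labels, biotin-labelled RNA came from 6 µg of total RNA. RMA sets arrays to a common distribution, so a shift shared by most genes would not be seen. Of 29129 probe sets 19572 had 1 symbol, and all matched a RefSeq gene listing (GRCm38.p6) through their gene IDs. Where a symbol had more than 1 probe set (55 symbols), the highest mean was taken, leaving 19505 genes.

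Each comparison was a contrast of 1 model over all 12 arrays (limma 3.58.1 in R 4.3.3, lmFit and eBayes, two-sided), with Benjamini-Hochberg adjustment over all genes and a threshold of 0.05. Intervals are 95% and unadjusted. Arrays have no read depth, and precision rests on their number and on the spread between mice. Each p-value sets a difference against a standard error that limma moderates over all genes. Members and lists were chosen with earlier results of these data known. Values on every array are given for the catalytic subunits measured and for the 4 largest log2 fold changes in each direction per comparison among members above background; members whose groups do not overlap are named. In each list the 2 genes of smallest p per comparison and any gene past the threshold are named. Array values of Psmb4, Psmc1, Psmc5, Psmd7, Psme1 and Fbxo32 were added after they were seen. On simulated DM against NC data with 200 changed genes among 19505, 42.7% of changes of 0.5 and 89.3% of changes of 1 on the log2 scale were recovered. The simulated noise was independent between genes, so variation that arrays share, such as atrial signal, was left out. Changed genes were drawn from all genes, and changes below 0.5 were not simulated. Alternatives covered normalization, dim genes, variance trend, array weights, replicate blocks, atrial signal and leaving out arrays. Python 3.11.15 and matplotlib 3.10.9 made the figures.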

Additional observations from a re-analysis of the deposited data

Results flagged for a closer look

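On 63 sets of 4 arrays (21 genes in 3 groups), 7 held an array that stood apart from the other 3 by most of the range of its set (Dixon's test at 5%); chance gives about 5% of sets. In DM_AngIV hearts, Psma5 was highest on replicate 3 at 7.82, with the others at 7.44 to 7.48. Psmc1 was lowest on DM_AngIV replicate 3 at 7.86, with the others at 7.93 to 7.94. Psmc3 was highest on DM_AngIV replicate 1 at 9.77, with the others at 9.51 to 9.55. In DM hearts, Psmd6 was highest on replicate 4 at 6.74, with the others at 6.59 to 6.60. In NC hearts, Psmc5 was lowest on replicate 2 at 6.49, with the others at 7.01 to 7.02, Psmd10 was lowest on replicate 1 at 5.13, with the others at 5.60 to 5.61, and Psme4 was lowest on replicate 1 at 7.82, with the others at 8.14 to 8.19.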

How the results depend on the processing

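Over 711 alternative values 1 changed sign: without DM replicate 1 the median log2 fold change of the 47 genes in DM against NC was 0.0036, beside -0.04 with all arrays. Of the others, 20 values of Fbxo32, B2m, Tap1 and Col3a1 missed the threshold. The number of the 47 genes called in DM_AngIV against NC was 0. At an adjusted p below 0.10 it was 3 (Psma6, Psmc3 and Psmd4), and the share of all genes at 0.10 is not given here. After removing dim genes 3 of the 42 members kept were called, beside 5.17% of the 9748 genes kept. With a variance trend 3 were called, beside 2.62% of all genes. For Psmd4 the limma adjusted p ranged between 0.0165 and 0.175 over the alternatives, for Psma6 between 0.00763 and 0.213 and for Psmc3 between 0.0219 and 0.225. The number called was 0 in DM against NC and DM_AngIV against DM under every alternative run, and 0 in all comparisons without any 1 array. Median log2 fold changes without 1 array lay between -0.07 and 0.00 in DM against NC, 0.03 and 0.08 in DM_AngIV against DM, and 0.02 and 0.08 in DM_AngIV against NC. Replicate numbers did not pair the mice (r of same-numbered arrays between -0.10 and 0.17). With the replicate number as a block 0 of the 47 genes were called in each comparison. Those with an unadjusted limma p below 0.05 in DM_AngIV against DM then numbered 3, all higher, beside 3.53% of all genes on the higher side. Without the block they numbered 7, beside 3.98%. Over all genes, calls in DM_AngIV against NC were 198, against 115 with the block, 504 without dim genes, 511 with the variance trend, 50 without arrays with atrial signal and 81 to 167 without 1 array; in DM against NC they were 3, against 20 without dim genes, 30 with the trend, 0 without arrays with atrial signal and 2 to 30 without 1 array; in DM_AngIV against DM they were 0, against 0 to 5 without 1 array. Alternatives were chosen with earlier results known. Signal over background limits 6 of the 47 genes.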
